A study of Mus musculus with 8 samples.

Results

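Radiation-resistant TC-1/IR tumours were examined for whether irradiation and interleukin-7, given together, changed secreted proteins by the product of what each did alone. The 4 array membranes of TC-1/IR tumours were taken, out of 8 membranes in the series, 1 for each of the treatments RT+IL-7, RT, IL-7 and buffer. The other 4 membranes carry lysates of the radiation-sensitive parental line TC-1 under the same treatments and serve only for comparison. Both lines express the oncoproteins E6 and E7 of human papillomavirus 16. All mice were female C57BL aged 10 weeks, and tumours were started in the right thigh, subcutaneously, from 300000 TC-1/IR cells or 100000 TC-1 cells. Mice were treated once tumours had grown to around 100 mm3, between 8 and 10 days later. RT was gamma irradiation of the whole body at 2 Gy a day for 4 days, so host cells outside the tumour were irradiated as well. IL-7 was 50 µg of rhIL-7-hyFc, a recombinant human interleukin-7 fused to an antibody Fc part, injected under the skin on days 0 and 7. Tumours were excised at the end of the experiment, and their lysates were put on an antibody array for 111 mouse cytokines and related proteins. The sample titles call each lysate pooled, while the series text speaks of tumours of individual mice, and how many animals stand behind each membrane is therefore not clear. The array has no antibody for E6 or E7, so the identity of the lines could not be checked from these values.

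Interleukin-7 binds a receptor that shares the common gamma chain with the receptors of interleukin-2 and interleukin-15, and it keeps T cells alive and lets them divide. Ionising radiation kills lymphocytes and proliferating cells, and damaged cells release interferon-driven chemokines, danger signals and growth factors. Chemokines such as CXCL10 and CCL19 draw lymphocytes, whereas CXCL2, CD14 and myeloperoxidase belong to the traffic and equipment of myeloid cells.

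Intensities are the means of duplicate spots on a linear scale. A mean below 2.49, which is 1% of the highest analyte mean over all 8 membranes, was set to 2.49 before log2 was taken, and such a value is called below the floor. Of the 111 analytes, 72 were above the floor on at least 1 TC-1/IR membrane and are called measured, and 28 were above it on all 4. Non-additivity is the log2 intensity in RT+IL-7 minus RT minus IL-7 plus buffer. A value of 0 means that the combination equalled the product of the 2 single-treatment ratios, and a negative value means that it fell short of it. An analyte was called below or above additivity where this value was at least 2-fold and more than 2 times its technical standard error (SE), which comes from duplicate spots alone. A ratio between 2 membranes was called higher or lower at 1.5-fold or more, provided that 1 of the membranes passed the floor and the duplicate spots of the 2 were apart, and "rose" and "fell" are used only in that sense. With 1 membrane per group there was no test and no p-value, and the spread between animals is unknown. RT and IL-7 are compared with the same buffer membrane, and the loss of a rise is read on the same single-treatment membrane as the rise itself. In a lysate of whole tumour, fewer cells of a type and less protein per cell cannot be told apart.

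The whole membranes moved in the same way as most analytes. Summed intensity was 739 in RT+IL-7, 1473 in RT, 1495 in IL-7 and 765 in buffer, and 36, 64, 48 and 38 analytes were above the floor in that order. The combination therefore carried about as much signal as buffer, while each single treatment carried nearly 2 times as much. Non-additivity of the summed intensity was -1.96, and it was -1.79 without the 5 strongest analytes of each membrane. In TC-1 tumours these sums gave -0.36 and -0.49. Amount of lysate loaded, exposure and total cytokine content cannot be told apart here, since the sources give no protein amount and the values hold no reference spots. Results are therefore given as deposited and after median centring, in which each membrane is shifted to the same median log2 over the 28 analytes. Centring adds a constant to every non-additivity value, so that any value above -1.70 as deposited turns positive, and levels and values by group are as deposited unless centring is named.

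As deposited, the combination fell short of the product of the single treatments in 33 of 72 measured analytes (45.8%) and exceeded it in 2 (2.78%). Among the 28 analytes that passed the floor on each of the 4 membranes, 17 were called below additivity (60.7%) and 0 above (0.0%). Their median was -1.64, with a range of -4.29 to 0.93, and 25 of the 28 were under 0. The remaining 16 analytes called below had at least 1 membrane below the floor: for 8 the true value can only be lower still, and for the other 8 it is not bounded. Additivity counted on the linear scale, as RT plus IL-7 minus buffer, gave nearly the same counts, with 34 analytes below (47.2%) and 1 above (1.39%).

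**Figure D1:**
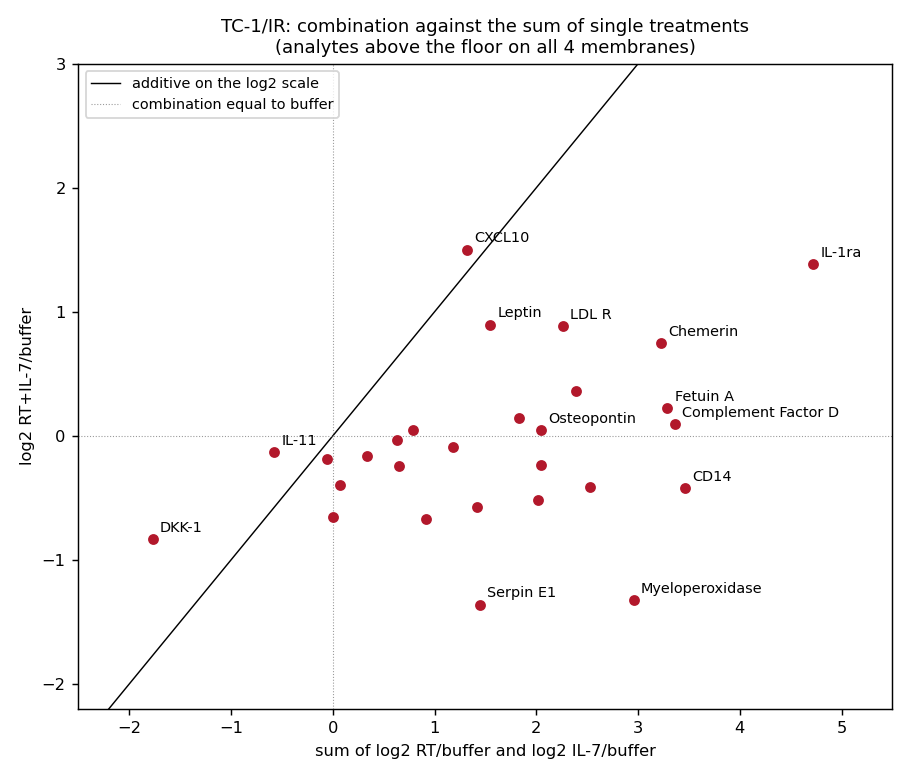
Combination against the single treatments in TC-1/IR tumours, as deposited. Each point is 1 of the 28 analytes above the floor on all 4 membranes, with the sum of its log2 RT/buffer and log2 IL-7/buffer ratios on the x axis and its log2 RT+IL-7/buffer ratio on the y axis; the solid line marks additivity on the log2 scale and the dotted horizontal line a combination equal to buffer. In all, 25 of the 28 points lie below the solid line, and CXCL10 lies 0.18 above it at a height of 1.5.

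Most analytes in the combination were called neither higher nor lower than in buffer. RT+IL-7 was higher than buffer in 7 of 44 analytes measured on these membranes (15.9%) and lower in 8 (18.2%). RT alone was higher than buffer in 31 of 67 (46.3%) and lower in 2 (2.99%), and IL-7 alone was higher in 26 of 53 (49.1%) and lower in 3 (5.66%). Set against the single treatments, RT+IL-7 was higher than RT in 3 of 66 analytes (4.55%) and lower in 31 (47.0%). It was higher than IL-7 in 4 of 54 (7.41%) and lower in 31 (57.4%). Among the 28 analytes, the combination was the lowest of the 4 membranes in 13 and next to the lowest in 11. It was next to the highest in 3 (DKK-1, IL-11 and leptin) and the highest in 1, CXCL10.

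A rise under RT or IL-7 was seen in 38 of the 72 measured analytes (52.8%), 19 under both, 12 under RT only and 7 under IL-7 only. Of these rises, 32 were lost in the combination (44.4% of measured analytes), which means that RT+IL-7 was not higher than buffer and was lower than each single treatment that had raised the analyte. In 5 the rise persisted (6.94%), with RT+IL-7 still higher than buffer, and 1, the growth factor PDGF-BB (1.39%), met neither definition. Over the 32 lost rises the median log2 ratio of RT+IL-7 to buffer was 0, between -1.36 and 0.36, with 17 below the floor in RT+IL-7 and 15 below it in buffer. Those below it on both membranes, such as CD40, TNF-α and VEGF, have a ratio of 0 by construction. The median therefore does not show a return to the level of buffer. Before the floor was set, the RT+IL-7 mean was under the buffer mean in 19 of the 32. Over the 5 persisting rises the median log2 ratio was 0.90, between 0.75 and 1.5, and all 5 were above the floor on every membrane.

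**Figure D2:**
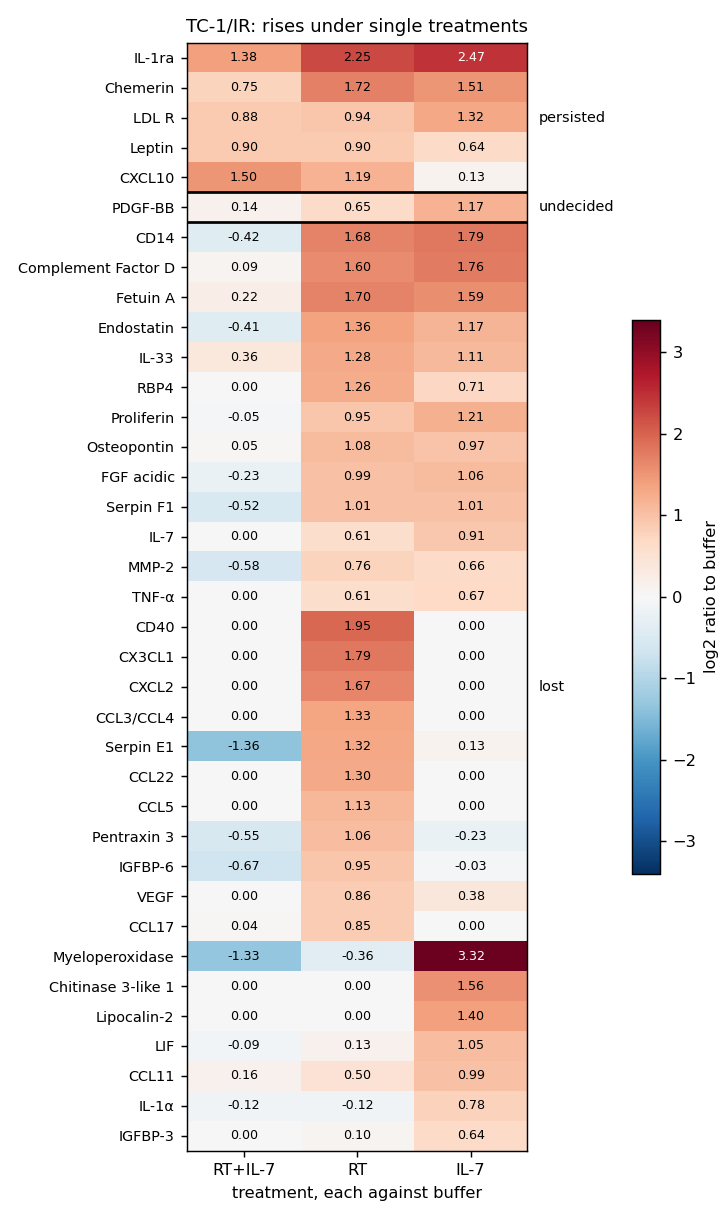
Log2 ratios to buffer, as deposited, of analytes that rose under RT or IL-7 in TC-1/IR tumours, 37 of the 38. Columns are RT+IL-7, RT and IL-7, rows are analytes grouped by whether the rise persisted, was undecided or was lost, and colour gives the log2 ratio. The RT+IL-7 column is 0.75 or more in the persisting rows and between -1.36 and 0.36 in the rows below. Where both membranes were below the floor the ratio is 0 by construction.

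Myeloperoxidase and CD14, both products of myeloid cells, had the 2 lowest non-additivity values as deposited and after centring. Myeloperoxidase, the peroxidase of neutrophil granules, stood at 4.08 in RT+IL-7, 7.96 in RT, 102 in IL-7 and 10.2 in buffer. IL-7 alone raised it 9.99-fold, and the combination was 2.51-fold lower than buffer and 25.1-fold lower than IL-7. Its non-additivity was -4.29 ± 0.39 (technical SE), or 19.5-fold below the product of the single treatments. CD14, the lipopolysaccharide co-receptor of monocytes and macrophages, read 38.7 in RT+IL-7, 166 in RT, 179 in IL-7 and 51.8 in buffer. Both single treatments were high and the combination was the lowest of the 4. Non-additivity of CD14 was -3.89 ± 0.04, a shortfall of 14.8-fold.

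The other myeloid products split by the treatment that raised them. Lipocalin-2, an iron-withholding protein of neutrophil granules, reached 6.59 in IL-7 and was below the floor on the other 3 membranes, a rise of at least 2.65-fold over buffer that was lost. Chitinase 3-like 1, a lectin of neutrophils and macrophages, had the same pattern, with 7.35 in IL-7 alone. Its spots in RT+IL-7, 1.3 and 1.7, were both over those in buffer, 0.66 and 0.68, so the loss of its rise depends on the floor. Pentraxin 3, a pattern recognition protein released by myeloid and stromal cells, was instead high with RT, at 7.58, against 3.63 in buffer, and was below the floor in the combination. Of the list of neutrophil and myeloid products, only myeloperoxidase was above the floor on all 4 membranes. It alone of the 4 measured was below additivity after centring, against 11.1% of all measured analytes. Lipocalin-2 and chitinase 3-like 1 were measured only through the IL-7 membrane, so that their shortfall follows from the floor on the others and has no bound, and MMP-9 was not measured. The summed level of the list was 7.86 in RT+IL-7, 18 in RT, 119 in IL-7 and 14.6 in buffer, so that it was carried by myeloperoxidase on the IL-7 membrane. Among 3 monocyte and macrophage markers, CD14 alone was below additivity under both settings. Over all measured analytes the shares below were 45.8% as deposited and 11.1% after centring. The growth factor M-CSF was at -0.46 ± 0.62, and the chemokine CCL6 was below the floor on all but the buffer membrane, where it lay at the floor.

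**Figure D3:**
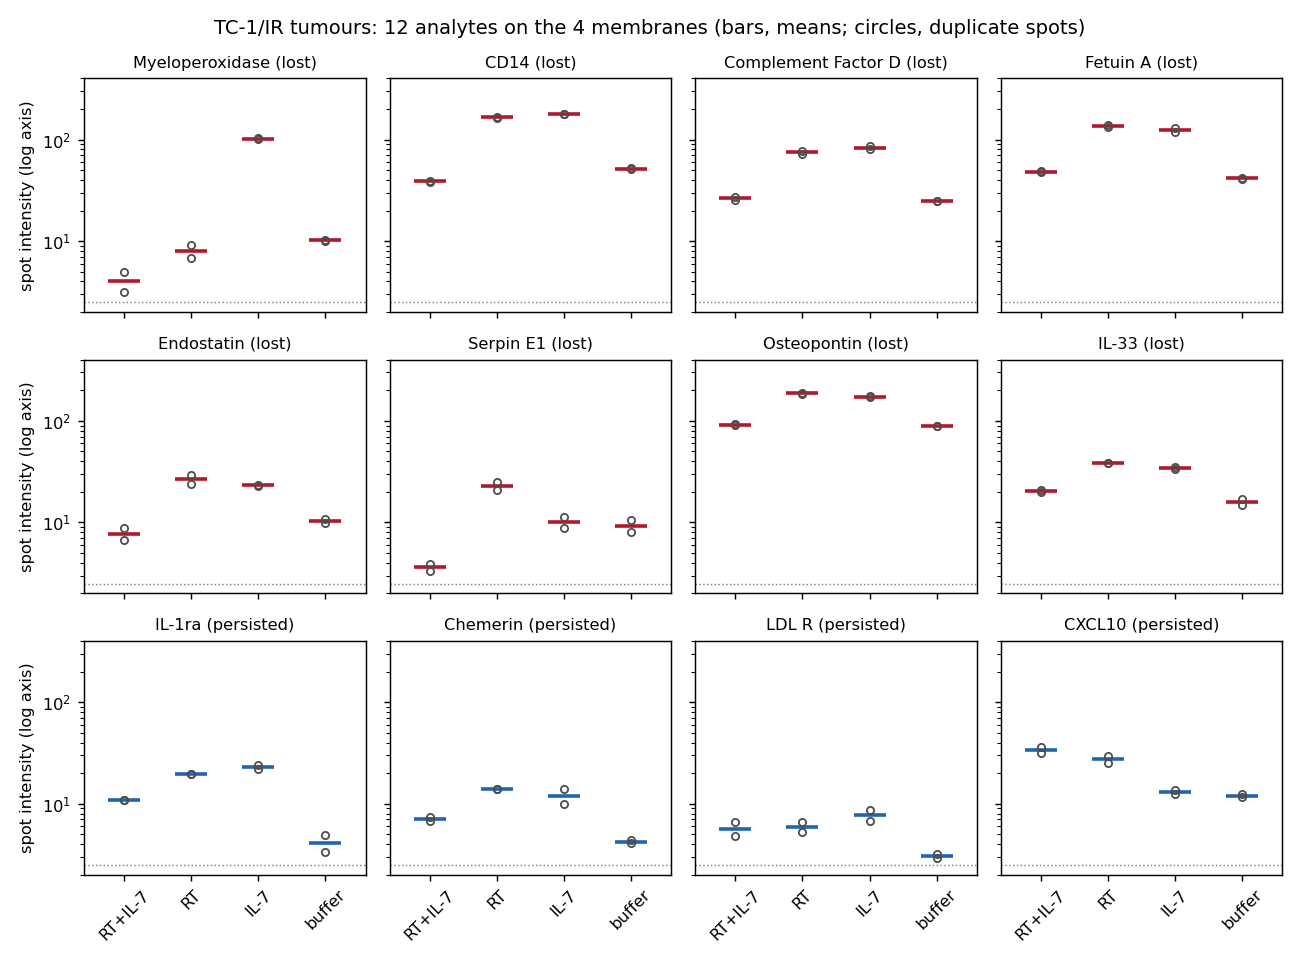
Spot intensities on the TC-1/IR membranes for analytes whose rise was lost (red) or persisted (blue), on a log axis. Circles are duplicate spots, bars their means, the dotted line the floor of 2.49, and membranes run RT+IL-7, RT, IL-7, buffer. In the lost panels the RT+IL-7 mean is near or under that of buffer, for example 38.7 against 51.8 for CD14; in the persisting panels it is above buffer, for example 34.0 against 12 for CXCL10.

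Matrix and protease proteins included several abundant analytes whose rise was lost. Of 8 measured, 7 of them above the floor on all 4 membranes, 5 were below additivity and lost, and after centring 2 were below and 3 above. Their median non-additivity was -2.0, against -1.64 over the 28 analytes above the floor on all 4, of which 60.7% were below, and -0.80 over all 72, of which 45.8% were. Osteopontin, an adhesive phosphoprotein of bone and tumour matrix, was 91.7 in RT+IL-7, 188 in RT, 174 in IL-7 and 88.8 in buffer. The combination and buffer were alike and both single treatments were about 2 times as high, giving -2.0 ± 0.03. Serpin F1, an inhibitor of vessel growth, was 54.7 in RT+IL-7, 158 in RT, 158 in IL-7 and 78.4 in buffer (-2.53 ± 0.08). Endostatin, the vessel-inhibiting fragment of collagen XVIII, was 7.73 in RT+IL-7, 26.5 in RT, 23.1 in IL-7 and 10.3 in buffer (-2.94 ± 0.24). These 2 inhibitors were lowest in the combination and high in each single treatment. MMP-2, a gelatinase, followed with 5.93, 15.0, 13.9 and 8.84 in the same order of membranes (-1.99 ± 0.15). Serpin E1, the inhibitor of plasminogen activators, rose under RT only, with 3.6 in RT+IL-7, 23.1 in RT, 10.1 in IL-7 and 9.25 in buffer. The combination was 6.40-fold lower than RT and 2.57-fold lower than buffer, and non-additivity was -2.81 ± 0.31. The other measured members, coagulation factor III (-0.50 ± 0.39), DKK-1 (0.93 ± 0.40) and periostin (above the floor in RT only), were not called.

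Of 6 angiogenic growth factors measured, 4 were called below additivity, against 45.8% of all measured analytes, and after centring 0 were below and 1 was above. Of their 4 rises 3 were lost, as were 32 of 38 over all analytes. FGF acidic, a mitogen of endothelium and fibroblasts, was 3.02 in RT+IL-7, 7.04 in RT, 7.43 in IL-7 and 3.56 in buffer (-2.28 ± 0.16). Proliferin, a placental hormone family member that promotes vessel growth in mice, rose to 4.96 in RT and 5.96 in IL-7, against 2.57 in buffer, and was below the floor in the combination, which makes its value at most -2.21. VEGF was 4.5 in RT and 3.25 in IL-7 and was below the floor in the combination and in buffer (at most -1.24). PDGF-BB, which recruits pericytes, was 4.37 in RT+IL-7, 6.22 in RT, 8.94 in IL-7 and 3.96 in buffer. Its combination was lower than IL-7 but not by the rule lower than RT, so its fate is undecided. Insulin-like growth factor binding protein IGFBP-6 rose under RT only, with 11.0 in RT+IL-7, 33.9 in RT, 17.2 in IL-7 and 17.6 in buffer (-1.59 ± 0.09), and IGFBP-3 rose under IL-7 only, to 3.88, with the combination and buffer below the floor.

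Among proteins that also circulate in plasma or come from fat, fetuin A and complement factor D fell far short of additivity. Fetuin A, a liver-made inhibitor of calcification, was 48.4 in RT+IL-7, 135 in RT, 125 in IL-7 and 41.5 in buffer (-3.06 ± 0.08). Complement factor D, the serine protease of the alternative complement pathway secreted largely by fat cells, was 26.3 in RT+IL-7, 74.8 in RT, 83.5 in IL-7 and 24.6 in buffer (-3.27 ± 0.07). Both had the combination close to buffer and both single treatments about 3 times as high. RBP4, the plasma carrier of vitamin A, was 5.96 in RT and 4.07 in IL-7 and below the floor on the other 2 membranes. The pentraxin 2 level, the strongest of all on each TC-1/IR membrane but RT, was flatter at 165 in RT+IL-7, 177 in RT, 249 in IL-7 and 169 in buffer (-0.66 ± 0.08, not called). Of the liver plasma proteins 2 of 5 measured were below additivity, against 45.8% of all measured analytes (after centring 1 below and 3 above, against 11.1% and 38.9%), with summed levels of 221 in RT+IL-7, 325 in RT, 380 in IL-7 and 218 in buffer. For fat products it was 1 of 3 under both settings, with sums of 35.9, 87.9, 93.9 and 34.1 in that order, while adiponectin and resistin were not measured. Of 6 endothelial markers only E-selectin was measured, and it was not called. The part of plasma, fat or myeloid content in the other results was not tested.

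Cytokines of the interleukin-1, tumour necrosis factor and interleukin-6 families fell short in 4 of 6 measured members (median -1.28). Of the 6, 4 passed the floor on every membrane, and after centring 1 was below and 1 above. Over all analytes 45.8% fell short, and 60.7% of those above the floor on all 4. Interleukin-33, an alarmin stored in nuclei of epithelial and stromal cells, was 20.4 in RT+IL-7, 38.5 in RT, 34.4 in IL-7 and 15.9 in buffer. Its combination was 1.28-fold above buffer, under the threshold, and its rise was lost, with -2.03 ± 0.10. LIF, an interleukin-6 family cytokine, rose under IL-7 only, with 4.29 in RT+IL-7, 5.01 in RT, 9.45 in IL-7 and 4.57 in buffer (-1.27 ± 0.12). Tumour necrosis factor alpha was 3.79 in RT and 3.96 in IL-7 and below the floor in the combination and in buffer (at most -1.28). Interleukin-1 alpha, an alarmin, rose under IL-7 only, to 4.67 against 2.71 in buffer, and lay below the floor in the combination. Interleukin-11 was flat, between 2.81 and 3.56 on the 4 membranes, and interleukin-1 beta and interleukin-6 were not measured.

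Several chemokines and the receptor CD40 were above the floor with RT alone. CD40, the co-stimulatory receptor of antigen-presenting cells, was 9.61 in RT and below the floor on the other 3 membranes, at least 3.86-fold over both RT+IL-7 and buffer. CX3CL1, the membrane-anchored ligand for the fractalkine receptor of monocytes and killer cells, was 8.59 in RT, at least 3.45-fold over both. CXCL2, which attracts neutrophils, was 7.91 in RT, at least 3.18-fold over both. The same pattern held for CCL3/CCL4 (6.27 in RT), CCL22 (6.12) and CCL5 (5.46), ligands for receptors of T cells, regulatory T cells and monocytes. In these 6 analytes the IL-7 membrane too was below the floor, so by the rule only RT raised them. Since their other 3 membranes were below the floor, their non-additivity, between -1.95 for CD40 and -1.13 for CCL5, has no settled bound. Below the floor does not mean absent. CD40 spots were 1.71 and 1.41 in IL-7 against 0.55 and 0.81 in buffer. CXCL2 spots were 1.55 and 1.57 in IL-7 against 0.82 and 0.57 in buffer. That CD40 and CXCL2 do not count as raised by IL-7 alone therefore depends on the floor. CCL5 spots were 1.81 and 2.19 in RT+IL-7 against 0.16 and 1.32 in buffer, so the loss of its rise depends on the floor. CCL22 spots were 0.73 and 0.82 in RT+IL-7 against 2.35 and 1.87 in buffer. CCL17, a partner of CCL22 on the receptor CCR4, was 2.56 in RT+IL-7, 4.5 in RT and below the floor in IL-7 and buffer. Its rise was lost without a call on non-additivity (-0.81, without a bound). CCL17 spots were 0.78 and 0.77 in IL-7 against 2.35 and 2.58 in buffer, so this value and its sign depend on the floor. CCL11, an eosinophil attractant, rose under IL-7 only, with 2.78 in RT+IL-7, 3.53 in RT, 4.96 in IL-7 and less than the floor in buffer (at most -1.34). Its buffer spots were 1.05 and 1.68, against 3.2 and 3.86 in RT and 2.71 and 2.85 in RT+IL-7. That RT did not raise CCL11 by the rule, and that its rise counts as lost, therefore depends on the floor. In all, 15 analytes were above the floor in RT only, 4 in IL-7 only, 9 in RT and IL-7 only, and 1, CXCL9, in the combination only.

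Interleukin-7 itself was above the floor in both single treatments and not in the combination. It read 3.79 in RT and 4.69 in IL-7, and was below the floor in RT+IL-7 and in buffer, where the deposited means were 1.91 and 0.595. The IL-7 membrane was at least 1.88-fold over buffer and the RT membrane at least 1.52-fold, and non-additivity was at most -1.52. Its spots in RT+IL-7, 1.64 and 2.17, were both over those in buffer, 0.75 and 0.44. That its rise counts as lost therefore depends on the floor. No source used here says whether the antibody of this mouse array binds the injected human protein. Interleukin-15, the other measured common gamma chain cytokine, was 6.95 in RT+IL-7, 10.4 in RT, 5.80 in IL-7 and 7.92 in buffer (-0.13 ± 0.49, not called), and interleukin-2 and interleukin-4 were not measured.

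CXCL10, the interferon-induced ligand that draws CXCR3-bearing T cells and killer cells, was the one analyte of the 28 that was highest in the combination. It read 34.0 in RT+IL-7, 27.4 in RT, 13.1 in IL-7 and 12 in buffer. RT raised it 2.29-fold over buffer, IL-7 left it at 1.09-fold, which is under the threshold, and the combination was 2.83-fold over buffer. The 2 irradiated membranes were high and the 2 others low, and RT+IL-7 was not called higher than RT. Non-additivity was 0.18 ± 0.17, within 2 technical SE of 0.

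Of the other 4 persisting rises, 2 kept only a share of what the single treatments gave. The interleukin-1 receptor antagonist IL-1ra, which blocks interleukin-1 signalling, was 10.8 in RT+IL-7, 19.7 in RT, 22.9 in IL-7 and 4.13 in buffer. It stayed 2.61-fold over buffer, yet was lower than each single treatment and fell 10.1-fold short of their product (-3.34 ± 0.27). Chemerin, an attractant of dendritic and killer cells and also an adipokine, was 7.13 in RT+IL-7, 14.0 in RT, 12 in IL-7 and 4.24 in buffer (-2.48 ± 0.26). For both proteins the combination lay between buffer and the single treatments. The LDL receptor, shed from many cells, was 5.70 in RT+IL-7, 5.92 in RT, 7.71 in IL-7 and 3.08 in buffer (-1.38 ± 0.33). Leptin, the satiety hormone of fat, was 6.11 in RT+IL-7, 6.12 in RT, 5.12 in IL-7 and 3.28 in buffer (-0.65 ± 0.56, not called). For these 2 the combination was not called different from either single treatment. So 3 of the 5 persisting rises were called below additivity as deposited, and CXCL10 and leptin were not.

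By the rule, the combination also raised 2 chemokines that neither single treatment raised. CCL19, a ligand of CCR7 that steers T cells and dendritic cells into lymphoid tissue, was 6.59 in RT+IL-7, 3.53 in RT, below the floor in IL-7 and 3.27 in buffer. It was 2.02-fold over buffer, and its non-additivity was at least 1.29. CXCL9, a second CXCR3 ligand, was 3.81 in RT+IL-7 and below the floor on the other 3 membranes, at least 1.53-fold over buffer, with a non-additivity of 0.61 that is not bounded. CXCL9 spots in IL-7 were 2.95 and 1.97, on either side of the floor, against 1.15 and 1.33 in buffer. That CXCL9 does not count as raised by IL-7 alone therefore depends on the floor. CXCL16, a ligand of CXCR6 on T cells, was called above additivity (at least 1.63) in another way: it was 4.33 in RT+IL-7 and 4.42 in buffer and below the floor in both single treatments. Its duplicate spots differed widely, with standard deviations of 1.70 in RT+IL-7 and 2.06 in buffer, and the call was lost with the first spot alone (0.58) and on the linear scale (0.80), against 2.39 with the second spot. The call for CCL19 was lost with a 2% floor (0.41). Across the 7 measured chemokines of T cells and killer cells, 3 were below additivity, 1 above and CXCL10, CXCL9 and CXCL11 not called, and after centring 0 were below and 4 above. The shares over all measured analytes were 45.8% below and 2.78% above as deposited, and 11.1% and 38.9% after centring. DKK-1, an inhibitor of Wnt signalling, was as deposited the only analyte called lower than buffer under all 3 treatments, with 4.88 in RT+IL-7, 4.82 in RT, 4.61 in IL-7 and 8.70 in buffer. After centring its combination was 1.38-fold lower than buffer and no longer called.

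After median centring, non-additivity shows only how an analyte stood relative to the other centring analytes. The median of the 28 moved by 1.70, to 0.07, which the centring on these same analytes brings about, as it does a near balance of values above and below 0. By the rule of size 7 of them were then below additivity (25.0%) and 7 above (25.0%). Those still below were myeloperoxidase (-2.58), CD14 (-2.18), IL-1ra (-1.63), complement factor D (-1.56), fetuin A (-1.36), endostatin (-1.24) and serpin E1 (-1.10). Those above were DKK-1 (2.64), IL-11 (2.15), CXCL10 (1.88), IL-15 (1.57), coagulation factor III (1.21), pentraxin 2 (1.04) and IL-12 (1.04), along with CCL19 (at least 3.00) and CXCL16 (at least 3.33). Osteopontin, serpin F1, chemerin, FGF acidic, IL-33 and MMP-2, all below additivity as deposited, lay between -0.83 and -0.29 and were not called. Over all 72 measured analytes the centred counts were 8 below (11.1%) and 28 above (38.9%). Of those 28 above, 19 had a membrane below the floor and no settled direction, because an analyte at the floor on several membranes takes the shift of the membranes as its own value.

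**Figure D4:**
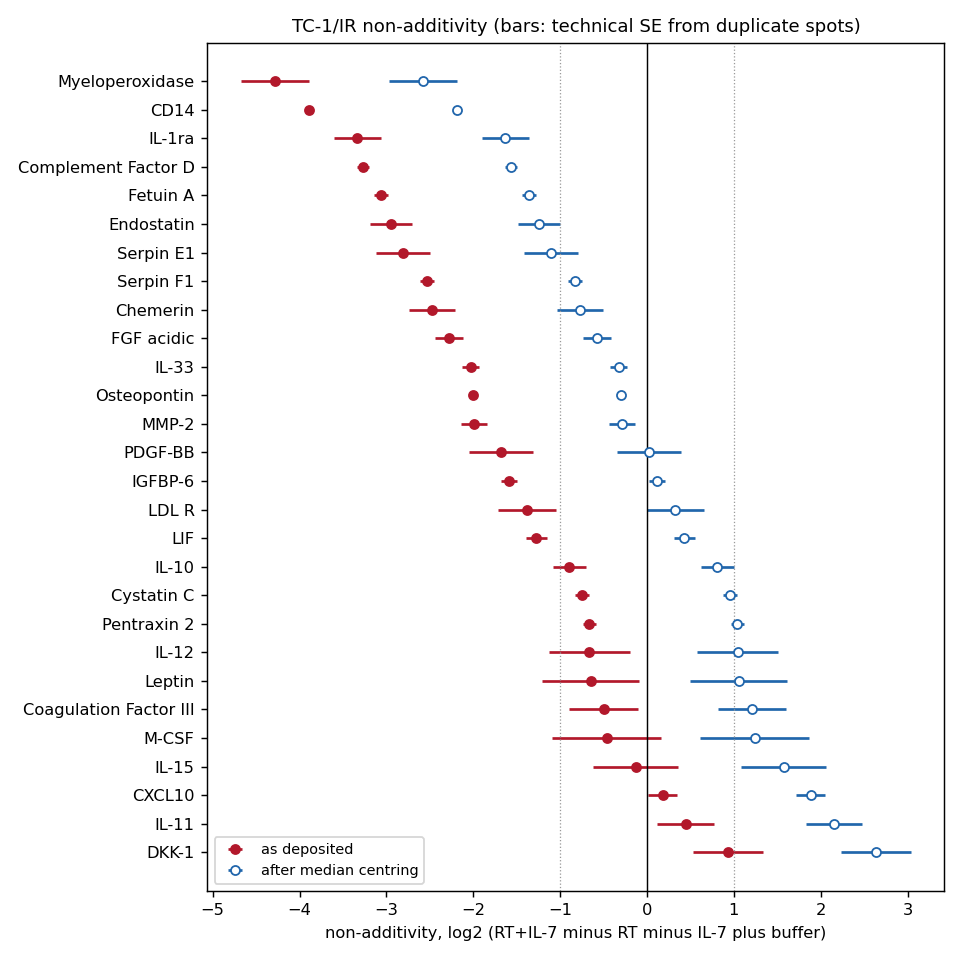
Non-additivity of the 28 analytes that passed the floor on each of the TC-1/IR membranes, on a log2 x axis, as deposited (filled) and after median centring (open). Horizontal bars are technical SE from duplicate spots, and dotted lines mark 2-fold. Centring moves every point to the right by the same 1.70, which leaves 7 points beyond the left dotted line and puts 7 called points beyond the right one.

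Fewer rises remained after centring, and a larger share of them persisted. There were 17 rises (23.6%), of which 6 were lost (8.33%), 5 persisted (6.94%) and 6 were undecided (8.33%). The lost ones included CD14, CD40, chitinase 3-like 1, endostatin and myeloperoxidase, with CD40 and chitinase 3-like 1 below the floor in RT+IL-7 and buffer. IL-1ra, chemerin and the LDL receptor persisted under both settings, at 3.37-fold, 2.17-fold and 2.39-fold over buffer in RT+IL-7 after centring. Fetuin A and IL-33 turned from lost to persisting, at 1.51-fold and 1.66-fold over buffer. CXCL10 and leptin no longer counted as rises, since RT alone was then 1.28-fold and 1.04-fold over buffer, although the combination was higher than buffer in both, 3.66-fold for CXCL10 and 2.41-fold for leptin. After centring, RT+IL-7 was higher than buffer in 11 of 44 analytes (25.0%) and lower in 4 (9.09%), higher than RT in 22 of 66 (33.3%) and lower in 4 (6.06%), and higher than IL-7 in 13 of 54 (24.1%) and lower in 8 (14.8%). RT alone was higher than buffer in 8 of 67 (11.9%) and lower in 14 (20.9%), and IL-7 alone was higher in 14 of 53 (26.4%) and lower in 11 (20.8%).

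The parental line gave a smaller shortfall. As deposited, 18 of 92 measured analytes were below additivity in TC-1 tumours (19.6%) and 1 above (1.09%). Over the same 28 analytes, 17 were called below in TC-1/IR and 5 in TC-1, and the TC-1/IR value was the lower in 22. The median of TC-1/IR minus TC-1 over all 28 was -1.18. Centring on these 28 analytes brings the median of each line near 0 by construction, so centred values cannot show whether the lines differ in general shortfall. After it, 7 of the 28 were called below in TC-1/IR and 2 in TC-1. Over all 92 measured in TC-1, centring left 6 below (6.52%) and 1 above (1.09%). Of 35 rises in TC-1 as deposited, 8 were lost, 12 persisted and 15 were undecided. The difference between the lines has no replicate and was not tested.

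Single analytes show where the lines parted. CD14 had -3.89 in TC-1/IR and 0.39 in TC-1, where it was 94.7 in RT+IL-7, 94.9 in RT, 100.5 in IL-7 and 132 in buffer. Myeloperoxidase had -4.29 in TC-1/IR and 0.00 in TC-1, where it was 8.88 in RT+IL-7, 9.11 in RT, 24.6 in IL-7 and 25.3 in buffer. In TC-1 the irradiated membranes were low in myeloperoxidase with or without IL-7, and neither protein rose with a single treatment. CXCL10 had 0.18 in TC-1/IR and 0.33 in TC-1 as deposited, and 1.88 and 0.79 after centring, where the TC-1/IR value was called above additivity and the TC-1 value was not. In TC-1 it was 40.5 in RT+IL-7, 21.7 in RT, 14.7 in IL-7 and 9.91 in buffer. Serpin E1 was below additivity in both, with -2.81 in TC-1/IR and -1.90 in TC-1.

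**Figure D5:**
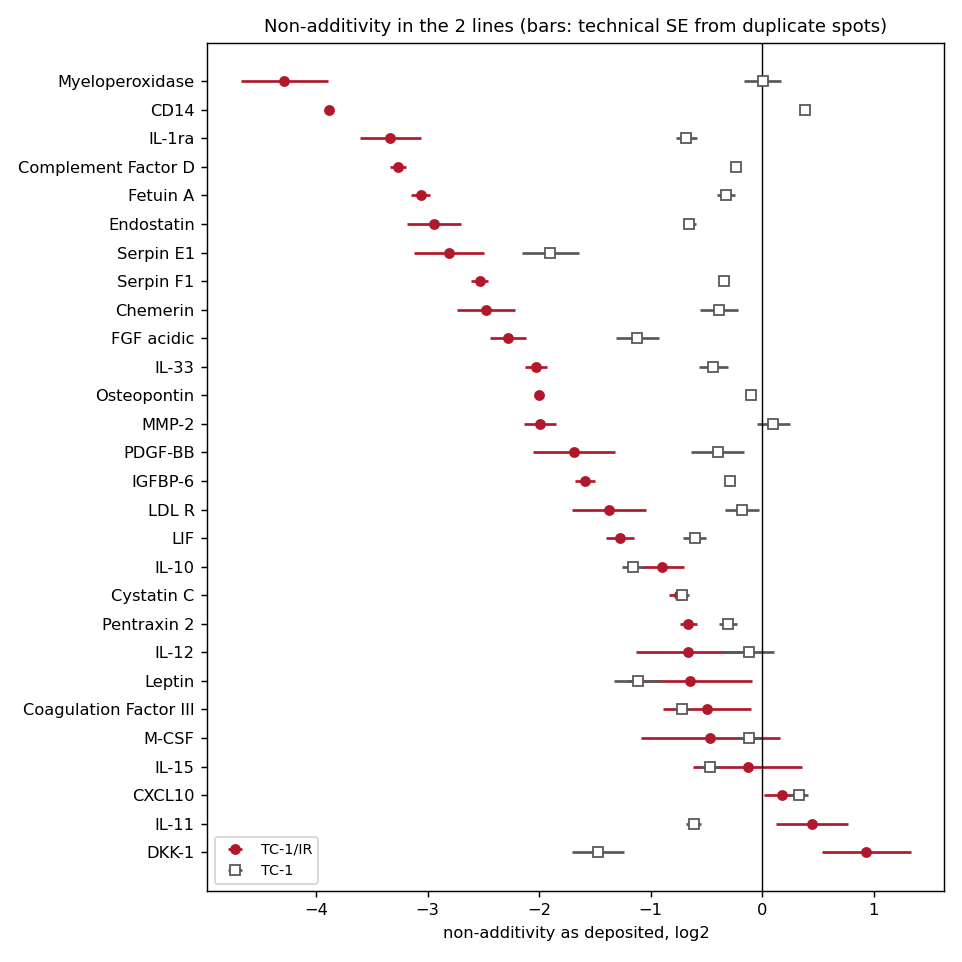
Non-additivity as deposited of the same 28 analytes in TC-1/IR (filled circles) and TC-1 (open squares), on a log2 x axis with technical SE. The TC-1/IR points reach down to -4.29, while the TC-1 points lie between -1.90 and 0.39, and CXCL10 is at 0.18 in TC-1/IR and 0.33 in TC-1.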

How the data were processed

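Spot intensities of the R&D Systems Proteome Profiler Mouse XL Cytokine Array were deposited by the authors as linear values, 222 spots for 111 analytes in 2 spots each on every membrane. The files of single membranes and the table of the series held the same values, with 0 differences. The software, background removal and scaling behind them are not given in any source used here. Placeholder values of 0.001 or 0.0011 stand for spots without signal, and the TC-1/IR membranes held 7, 9, 47 and 35 of them in RT+IL-7, RT, IL-7 and buffer. The median coefficient of variation of duplicate spots was between 6.81% and 11.1% on these membranes, and precision is limited by the small number of arrays.

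Duplicate spots were averaged, means under the floor of 2.49 were set to it, log2 was taken, and non-additivity was computed as RT+IL-7 minus RT minus IL-7 plus buffer. Centring subtracted each membrane's shift (-0.61, 0.60, 0.25 and -0.24 in that order) after the floor, from the 28 analytes above the floor on all 8 membranes, which are the same 28 as on all 4 TC-1/IR membranes. A floored buffer or combination makes a value an upper bound, a floored single treatment a lower bound, and both kinds leave it without a bound. There were 0 residual degrees of freedom within the line.

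Named analytes were all rises lost or persisting, the 10 values farthest from 0 in each direction as deposited and centred, those whose fate changed with centring, CXCL10, IL-7 and members of 18 lists of analytes by function or cell type. Members and lists were chosen with earlier results of these data known. The values of 1 analyte are not reported here, though it is counted. Alternatives were other floors, scalings, thresholds, single spots and linear additivity. Python 3.11.15, numpy 2.4.6, pandas 2.3.3 and matplotlib 3.10.9 were used. The calls of non-additivity without centring were tried on simulated data that held no shift of whole membranes. Centring and the classes of lost and persisting rises were not part of that trial.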

Additional observations from a re-analysis of the deposited data

Results flagged for a closer look

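For 5 values the 2 lines departed from additivity in opposite directions, each by at least 2-fold, and the difference between the lines was not tested. CX3CL1, as deposited, was at -1.79 in TC-1/IR, where it was above the floor in RT only and its value has no bound, and at 1.51 in TC-1, where it was 19.4 in RT+IL-7, 7.60 in RT, 10.5 in IL-7 and 11.7 in buffer. CXCL16, as deposited, was at least 1.63 in TC-1/IR and -1.01 in TC-1, where it was 5.58 in RT+IL-7, 6.22 in RT, 6.68 in IL-7 and 3.70 in buffer. After median centring, DKK-1 was at 2.64 in TC-1/IR and -1.01 in TC-1, both from membranes above the floor. In TC-1 its intensity was 6.05 in RT+IL-7, 7.54 in RT, 10.3 in IL-7 and 4.62 in buffer, so that buffer was the lowest membrane there and the highest in TC-1/IR. CXCL9, after centring, was at 2.32 in TC-1/IR, without a bound, and at -1.16 in TC-1. LIX, a neutrophil chemokine, was after centring at 1.44 in TC-1/IR, without a bound, and at most -1.23 in TC-1.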

How the results depend on the processing

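No paired analysis was possible because a group is 1 membrane and no label links animals between groups. Leaving out a membrane was not possible either, since each value needs all 4. Restricting the analytes leaves fewer to count. Centring, or scaling to the same sum, adds a constant to every non-additivity value as deposited, so the sign changes listed for them follow by construction. The cause of the other changes below was not tested. Centring on analytes that passed the floor on all 4, or on all 8, membranes used the same analytes and gave the same values.

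Below additivity, the 33 analytes as deposited became 48 with a 0.5% floor, 16 with a 2% floor and 50 with a floor per membrane. They became 8 after centring, 6 with membranes scaled to the same sum and 17 among analytes above the floor on all 4. Above it, the 2 became 0, 28 and 39 with the 2% floor, centring and the same sum, 4 at 1.5-fold, 0 among analytes above the floor on all 4 and 1 on the linear scale. After centring, the 8 below became 24 with a 0.5% floor, 13 with 2% and 14 per membrane, and the 28 above became 3 with 2%, 11 per membrane and 7 among analytes above the floor on all 4. Scaling first and setting the floor afterwards, an alternative chosen after seeing the data, gave 15 below and 9 above. Persisting rises, 5 as deposited, were 12 with a 0.5% floor, 2 with 2%, 9 per membrane, 2 with the same sum and 2 at 2-fold. Lost rises, 32 as deposited, were 43 with a 0.5% floor, 42 with a floor per membrane and 19 with a 2% floor. They were 6 after centring, 5 with the same sum, 23 at 2-fold and 13 among analytes above the floor on all 4. Undecided rises, 1 as deposited, were 2 with a 0.5% floor or with either single spot, 6 after centring, 3 with the same sum and 3 at 2-fold.

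Against buffer, centring gave 11 higher and 4 lower for RT+IL-7, 8 and 14 for RT, and 14 and 11 for IL-7, and 2-fold gave 3 and 4, 19 and 0, and 17 and 1. For RT+IL-7 against RT, centring gave 22 higher and 4 lower, and 2-fold 0 higher. For RT+IL-7 against IL-7, centring gave 13 and 8, and 2-fold 2 and 17. In TC-1 the 18 below became 6 after centring.

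These shortfalls turned positive after centring and, in the second value of each, with the same sum: CCL3/CCL4 0.37 and 0.63, CCL5 0.57 and 0.83, CCL11 0.37 and 0.62, CCL22 0.41 and 0.66, chitinase 3-like 1 0.14 and 0.40, CXCL2 0.037 and 0.29, IGFBP-6 0.12 and 0.37, IL-7 0.18 and 0.44, and LDL R 0.33 and 0.58. The same held for LIF 0.43 and 0.69, lipocalin-2 0.30 and 0.56, PDGF-BB 0.018 and 0.27, pentraxin 3 0.32 and 0.58, TNF-α 0.43 and 0.68, and VEGF 0.46 and 0.72. With the same sum only, CD40 became 0.012 and CX3CL1 0.17. Centred IL-7 was negative again, at -1.55 with a 0.5% floor, -0.97 with a floor per membrane and -0.44 scaled first. Centred Reg3G became -0.50 with a 0.5% floor. Signal near the floor limits the analytes not above it on all 4 membranes.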

Other observations

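Some analytes were lower in the combination than in buffer without having risen under either single treatment. Pref-1, a regulator of fat cell formation, was below the floor in RT+IL-7 and read 5.67 in RT, 4.14 in IL-7 and 5.01 in buffer. Interleukin-12, the cytokine that drives T cells towards interferon production, was 2.99 in RT+IL-7, 3.65 in RT, 6.11 in IL-7 and 4.71 in buffer. DPPIV, the peptidase that trims CXCL10 and other chemokines, was below the floor in RT+IL-7 and in IL-7, at 6.23 in RT and at 6.54 in buffer. DPPIV was thus low on both membranes with IL-7 and high on both without it. Its non-additivity of 0.07 has no bound, since a single treatment and the combination were both floored.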
